A study of Caenorhabditis elegans with 2 samples.

Results

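The alpha ring of the 20S proteasome is encoded in Caenorhabditis elegans by 7 genes, pas-1 to pas-7, and the occupancy of their promoters by a tagged transcription factor in L2 larvae is described here. The members were chosen by gene name in the Ensembl annotation of build WBcel235, which shares its coordinates with ce11, and all 7 names were found among 19973 nuclear protein-coding genes. The data come from chromatin immunoprecipitation followed by sequencing (ChIP-seq) of whole L2 larvae of strain OP178, of mixed sex and unknown age. The strain carries unc-119(ed3) III and the integrated transgene wgIs178, which expresses SKN-1 fused at its C terminus to GFP and FLAG. The labels do not give the promoter that drives the transgene or its copy number, and a whole-larva sample does not tell which tissue a site was bound in. There is 1 group, of 2 biological replicates, and no second condition, so that no value below is a response to a treatment. The antibody and strain labels name SKN-1, whereas the free-text description of both replicates names PHA-4.

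The proteasome degrades proteins that carry ubiquitin. Its 20S core is a stack of 4 rings, alpha, beta, beta and alpha, in which the beta subunits carry the proteolytic sites. The alpha subunits form the outer rings, whose N-terminal tails close the entry channel until a 19S regulatory particle docks. SKN-1 is the worm relative of the mammalian factors NRF1 and NRF2, and its isoform SKN-1A is known to raise expression of proteasome subunit genes when proteasome function is impaired. By their RefSeq product names, pas-1 to pas-7 encode alpha subunits of types 6, 2, 4, 7, 5, 1 and 3, in that order. The subunit encoded by pas-3, type 4, is the counterpart of the yeast subunit whose tail is the main gate of the channel. The genes are short, from 939 bp at pas-3 to 1270 bp at pas-4, and each has 1 annotated transcript and so 1 annotated 5' end. In worms many transcripts are trans-spliced, and an annotated 5' end can then lie downstream of the place where transcription starts.

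All 7 genes had a summit of the optimal peak list in their promoter, taken as 1000 bp upstream to 200 bp downstream of the 5' end. The optimal list holds 872 peaks that passed the irreproducible discovery rate procedure, which scores how reproducibly peaks rank in replicates. Over all protein-coding genes the same window held an optimal summit in 777, or 3.89%. The summits lay between 100 and 808 bp upstream of the 5' ends, with a median of 199 bp, and none lay downstream. The window itself reaches farther upstream than downstream, and sides were not counted over the 777 genes. Over the 777 genes with a summit the median distance was 228 bp, on either side of the 5' end. No optimal summit lay inside the body of any of the 7 genes, which was not counted over all genes. The lists of single replicates or of both pooled, which also hold background peaks, had summits inside pas-1, pas-2, pas-3, pas-6 and pas-7. Each of the 7 genes had 1 optimal summit in its window. Of the 7 summits, 6 also fell in the promoter window of another protein-coding gene, against 49.8% of the 777 genes, so that for these a peak cannot be assigned to the alpha ring gene alone.

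The deposited signal, the authors' enrichment value on the scale of each list, ranks the peaks within that list. In the optimal list it was highest at pas-5 (146), followed by pas-4 (108), pas-3 (105), pas-1 (84.7), pas-2 (77.3), pas-6 (61.8) and pas-7 (61.2). All 7 values were above the median of the 872 optimal peaks, 54.2, and that of the strongest promoter peaks of the 777 genes, 55.2. As ranks they ran from 35 at pas-5 to 309 at pas-7, with a median of 135. The deposited q value, in contrast, did not separate the members, since all 7 had the smallest q of the list, 0.00147, which 340 peaks share. No signal has an error of its own, and the depth of sequencing is unknown, since the lists state no read numbers.

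The order of the members was largely kept between replicates, with an exception at pas-7. Replicate 1's list of 24771 peaks placed pas-5 at rank 30, pas-3 at 80, pas-4 at 97, pas-1 at 106, pas-2 at 157, pas-7 at 197 and pas-6 at 347. Replicate 2's list of 28630 peaks placed pas-4 at rank 75, pas-5 at 77, pas-3 at 78, pas-1 at 174, pas-2 at 263, pas-6 at 276 and pas-7 at 1365. In both replicates pas-3, pas-4 and pas-5 held the first 3 places, pas-1 and pas-2 the next, and pas-6 and pas-7 the last. Within the first 3 and within the last 2 the order differed between replicates, so that these neighbours were not separated beyond the spread of the 2 lists.

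**Figure D1:**
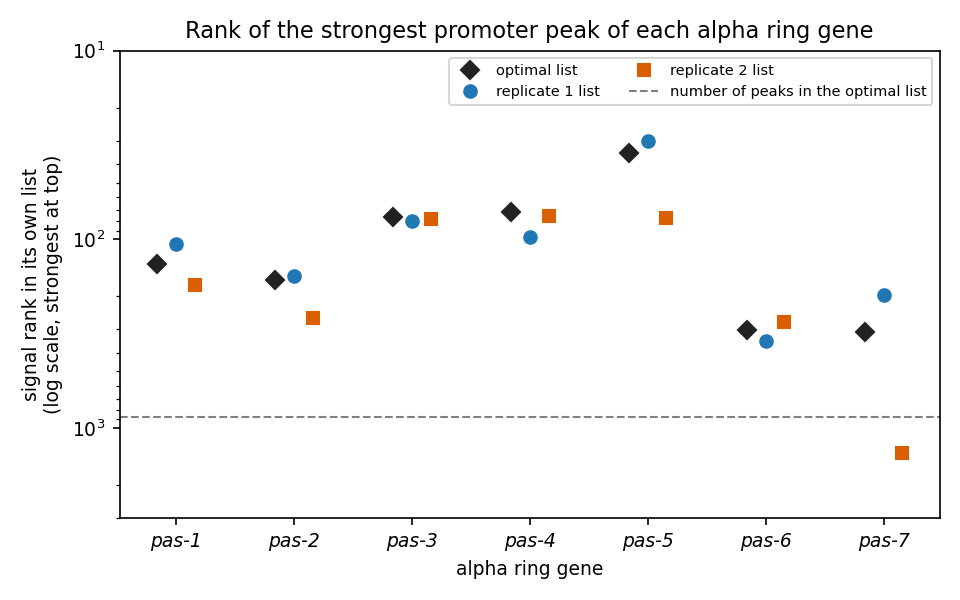
Signal rank (log scale, strongest at the top) of the strongest promoter peak of each alpha ring gene, in the optimal list and in the list of each replicate, each ranked within itself. The dashed line marks rank 872, and replicate 2's peak at pas-7, ranked 1365, is the only point below it.

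Both replicates had a summit in the window of all 7 genes. These replicate lists are relaxed and hold background peaks, and 41.0% of all protein-coding genes had a summit in replicate 1's list, 43.5% in replicate 2's and 27.2% in both. The pooled list, relaxed too, held a summit at all 7 genes and at 29.2% of all genes. The 7 had to hold, because every optimal peak is also in the pooled list. The optimal list derives from the relaxed lists, so replicate support, here and below, is not independent of an optimal summit. Replicate support was not counted over the 777 genes with an optimal summit. A narrower view took from each replicate its 872 strongest peaks. Replicate 1 then had a summit at all 7 members and at 3.80% of all genes, and replicate 2 at 6 members and 3.62% of all genes. Both together had 6 of 7 members and 2.06% of all genes, and the member lost was pas-7. Its peak in replicate 2 had a signal of 13.1 and a q of 0.0121, while the other 6 had the smallest q of that list, 0.0100. In replicate 1 the peak at pas-7 had a signal of 51.7 and, like the other 6, the smallest q of its list, 0.00117.

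Summit positions differed by at most 53 bp between the lists. The optimal and pooled lists hold the same peaks here, so the separate comparison is between the replicates. Their summits were 3 to 53 bp apart, with a median of 12 bp. Over the optimal, pooled and replicate lists the summits of a gene spanned 5 bp at pas-2, 6 bp at pas-1, 7 bp at pas-4, 12 bp at pas-3, 33 bp at pas-6, 38 bp at pas-7 and 53 bp at pas-5. The peaks of the 2 replicates overlapped at every member, by 281 bp at pas-5 and by 296 bp or more at the other 6. The optimal peak at pas-5 differed in shape: it was 95 bp wide, whereas the other 6 had the full width of 340 bp. Only 17 of the 872 optimal peaks were narrower than that. In the replicate lists the peak at pas-5 had the full widths of 324 bp and 344 bp, while the pooled list had the same 95 bp.

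**Figure D2:**
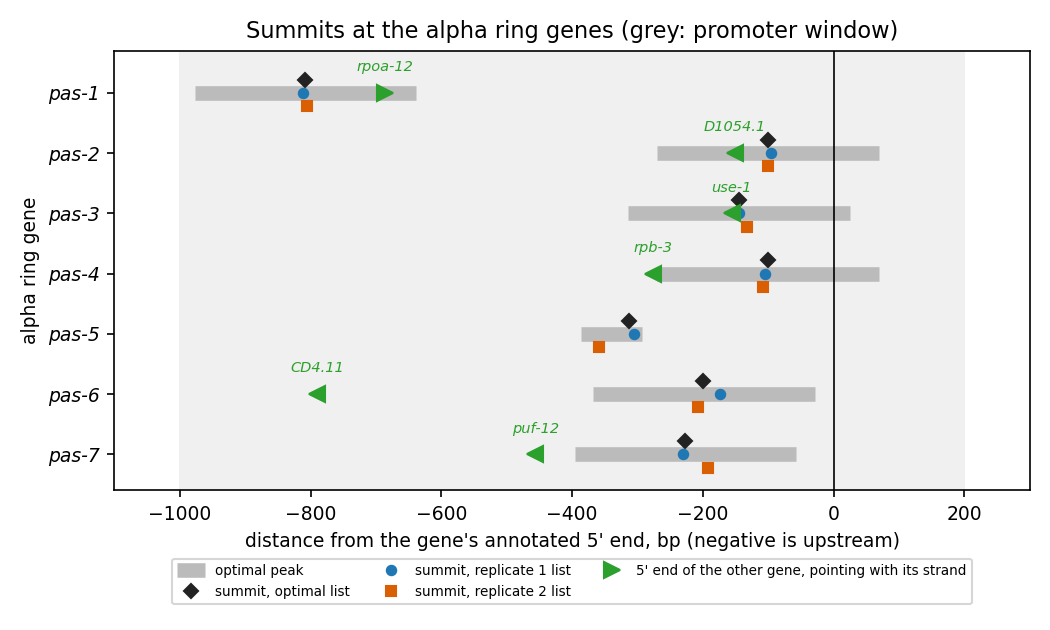
Summits relative to the annotated 5' end of each alpha ring gene, in bp with upstream negative. Grey bars are optimal peaks, points are summits in the optimal and replicate lists, and green arrowheads are 5' ends of other protein-coding genes with the summit in their window; the summit at pas-1 lies 808 bp upstream, beyond the 5' end of rpoa-12.

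The summit at pas-1 was the farthest from its gene. The gene lies on the reverse strand of chromosome V (14421566 to 14422618), and its optimal peak spanned 14423256 to 14423595 with the summit 808 bp upstream. Replicate 1 had its summit at 811 bp and replicate 2 at 805 bp, with signals of 65.5 and 26.6. Between pas-1 and this summit lies rpoa-12, which encodes an RNA polymerase subunit, on the same strand with 106 bp between the genes. The summit was 122 bp upstream of rpoa-12. Worm genes that follow each other this closely on a strand are often transcribed together as an operon, but operons are not marked in the annotation used here, and whether these genes form one was not tested. Closer to pas-1, replicate 1 had a further relaxed peak 244 bp upstream, with a signal of 12.1, rank 10535 and a q of 0.612. The summit of this further peak lay inside rpoa-12. Replicate 2 had none there. The next optimal summit was 1871 bp away, with a signal of 60.9 (rank 319), and was in the window of neither pas-1 nor rpoa-12. The gene downstream of pas-1, the short-chain dehydrogenase gene dhs-22, had no optimal summit.

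At pas-2 the summit lay 100 bp upstream, between divergent genes. The gene is on the forward strand of chromosome V (10770368 to 10771351), and its peak (10770098 to 10770437) covered the 5' ends of both pas-2 and D1054.1, which encodes a PNPLA domain protein. These 5' ends are separated by 150 bp, and the summit was nearer to that of D1054.1, at 51 bp. The signal was 77.3 in the optimal list, 55.9 in replicate 1 and 22.6 in replicate 2, with summits at 96 and 101 bp in the replicates. D1054.3, 99 bp downstream of pas-2 on the same strand and encoding an SGS domain protein, had no optimal summit of its own.

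The summit at pas-6 lay 199 bp upstream of a gene on the reverse strand of chromosome V (5583161 to 5584343). The peak spanned 5584372 to 5584711, with a signal of 61.8 in the optimal list, 41.9 in replicate 1 and 22.2 in replicate 2. Replicate 1 placed the summit at 174 bp and replicate 2 at 207 bp. The divergent gene CD4.11, which encodes a MAM domain protein, starts 789 bp from pas-6, and the summit was 591 bp from its 5' end. Of the 5 divergent pairs this had the widest gap, and here the alpha ring gene was clearly the nearer. The gene on the other side, the kinesin light chain gene klc-2, had no optimal summit.

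At pas-7, on the reverse strand of chromosome II (10098782 to 10099854), the peak spanned 10099911 to 10100250 with its summit 227 bp upstream. The divergent gene puf-12, which encodes an RNA-binding protein of the Pumilio family, was 229 bp from the summit, so that the summit stood midway between the pair. The noncoding RNA genes ZK945.12 and ZK945.13 also begin in this gap, at 21 and 17 bp from the summit. The signal was 61.2 in the optimal list and 51.7 in replicate 1, with the summit at 230 bp there. Replicate 2 had its summit at 192 bp. It also had a second peak at 419 bp, with its summit inside ZK945.13, a signal of 3.79 and a q of 0.900. On the other side lact-2, a beta-lactamase domain gene whose 3' end overlaps that of pas-7, had no optimal summit.

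The sequence at these 4 summits is shown so that the binding words of SKN-1 can be seen in place; for the other 3 members matches are given by distance only. SKN-1 is known to bind a short site that ends in ATCAT or GTCAT, preceded in its fuller 8-base form by A or T, A or T, and T. Each line gives the bases within 100 bp of the optimal summit, 5' to 3' in the direction of the alpha ring gene, from the RefSeq copy of WBcel235; at pas-2 the bases in exons of either gene are left out. Capitals mark every match to the 5-base words ATCAT and GTCAT or to the 8-base words, on either strand.
pas-1, chrV:14423326-14423526, reverse strand: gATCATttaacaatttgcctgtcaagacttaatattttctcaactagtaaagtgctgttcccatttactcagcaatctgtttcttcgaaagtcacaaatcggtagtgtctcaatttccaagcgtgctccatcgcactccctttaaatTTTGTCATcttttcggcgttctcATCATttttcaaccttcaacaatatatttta
pas-2, chrV:10770218-10770367, forward strand: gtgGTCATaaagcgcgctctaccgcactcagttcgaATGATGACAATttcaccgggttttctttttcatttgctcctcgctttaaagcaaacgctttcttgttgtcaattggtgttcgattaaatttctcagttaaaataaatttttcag
pas-6, chrV:5584442-5584642, reverse strand: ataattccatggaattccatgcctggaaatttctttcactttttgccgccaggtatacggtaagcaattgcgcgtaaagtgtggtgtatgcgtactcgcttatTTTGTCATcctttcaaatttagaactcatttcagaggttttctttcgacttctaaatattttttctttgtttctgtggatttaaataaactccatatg
pas-7, chrII:10099981-10100181, reverse strand: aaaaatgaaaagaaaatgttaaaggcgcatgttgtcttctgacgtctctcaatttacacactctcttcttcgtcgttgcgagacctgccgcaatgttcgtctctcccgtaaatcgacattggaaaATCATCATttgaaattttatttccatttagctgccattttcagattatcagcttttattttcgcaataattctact

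The 8-base word was present at pas-1, pas-2 and pas-6. At pas-3, pas-4 and pas-5, which had the strongest peaks of the ring, and at pas-7 it was absent. It read TTTGTCAT at pas-1 and pas-6, in the direction of the gene, and ATTGTCAT at pas-2 on the opposite strand. The match lay 3 bases from the summit at pas-6, 4 bases at pas-2 and 47 bases at pas-1, where it stood 754 to 761 bp upstream of pas-1. Of all 870 nuclear optimal summits 27.6% had an 8-base word within 100 bp, as did 11.2% of all protein-coding promoters in the 201 bases before the 5' end. The words searched were AATATCAT, AATGTCAT, ATTATCAT, ATTGTCAT, TATATCAT, TATGTCAT, TTTATCAT and TTTGTCAT, on both strands, and each holds a 5-base word.

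The 5-base word was present within 100 bp of all 7 summits. There were 12 matches, some of them overlapping, and 10 were in the direction of the alpha ring gene. Strand was not counted over all optimal summits or promoters, so the 10 has no share to stand beside. The 5-base word was present at 69.9% of all optimal summits and in 54.4% of all promoters, both high shares. The nearest match lay 6 bases from the summit at pas-6, 7 at pas-2, 25 at pas-7, 27 at pas-4, 30 at pas-3, 50 at pas-1 and 75 at pas-5. The match at pas-5 was its only one and ended at 10565962, just outside the narrow optimal peak, which starts at 10565963. It lay inside the wider replicate peaks. In the pas-7 sequence overlapping matches form the run ATCATCAT.

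The longest run common to the windows of pas-1, pas-2 and pas-6, searched on both strands, was TTGTCATC. It holds the 8-base word without its first base, followed by a C, so a window can have this run without an 8-base word. The windows of pas-1 and pas-6 shared the longer run ATTTTGTCATC. Both runs were found by comparing these members, so their presence there is a matter of definition. TTGTCATC was not found within 100 bp of the other 4 summits. Over all optimal summits it was present in 95 windows (10.9%), and over all promoters in 1.11%.

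Each other word searched was found at 1 member or at none. The GATA word TGATAA, which is bound by the intestinal GATA factors, was found at pas-7 only, 69 bases from the summit, against 39.2% of all optimal summits and 22.8% of all promoters. CTGCGTC, taken from an earlier search of these same peaks, was found at pas-5 only, 13 bases from the summit, against 12.3% of optimal summits and 3.25% of promoters. GAGAGAGA was found at none of the 7, against 7.01% and 2.75%. The forkhead words TGTTTAC and TGTTTGC, of the kind PHA-4 binds, were also found at none of the 7, against 13.7% of optimal summits and 8.73% of promoters. With 7 windows, none of these counts was tested against the shares.

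**Figure D3:**
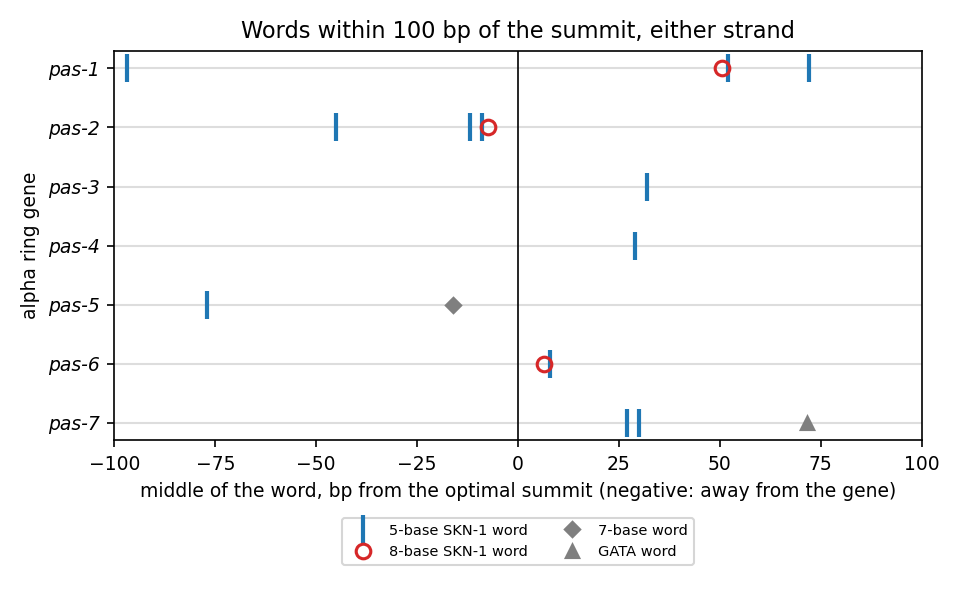
Matches to the searched words within 100 bp of the optimal summit of each alpha ring gene, on either strand, placed by their middle in bp from the summit in the direction of the gene. Blue ticks (5-base SKN-1 word) occur at all 7 genes and red circles (8-base word) at pas-1, pas-2 and pas-6; the GATA word is at pas-7 and the 7-base word CTGCGTC at pas-5.

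The remaining members, pas-3, pas-4 and pas-5, lie on chromosome I and had the strongest peaks of the ring. The gene pas-3 is on the reverse strand (5105110 to 5106048), and its peak spanned 5106023 to 5106362. The signal was 105 in the optimal list, 72.9 in replicate 1 and 38.3 in replicate 2, with the summit 145, 145 and 133 bp upstream. This peak had the steadiest rank of the 7, at 76, 80 and 78. The summit stood 11 bp from the 5' end of the divergent gene use-1, which encodes a vesicle transport protein and starts 155 bp from pas-3. Downstream, the CHORD domain gene chp-1 had no optimal summit.

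The gene pas-4 is on the reverse strand (8727218 to 8728487), with a peak from 8728418 to 8728757 that reached over its 5' end. Signals were 108 in the optimal list, 68.6 in replicate 1 and 39.7 in replicate 2, and the summit lay 101, 105 and 108 bp upstream. The divergent gene rpb-3, which encodes an RNA polymerase subunit, starts 276 bp away and was 176 bp from the summit, so that pas-4 was the nearer. The summit also fell at the edge of an annotated noncoding RNA, C36B1.16, and was the only one of the 7 inside an annotated exon. Replicate 2 had a further peak 885 bp upstream, inside rpb-3, with a signal of 4.16 and a q of 0.826. The nearest other optimal summit was 32158 bp away and was that of the beta ring gene pbs-7 (rank 36). On the other side the gene cle-1 had no optimal summit.

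The gene pas-5 is on the forward strand (10566350 to 10567300), and its narrow peak ran from 10565963 to 10566057. It was the only member whose summit lay in no other protein-coding promoter. Signals were 146 in the optimal list, 102 in replicate 1 and 39.2 in replicate 2. The summit lay 313 bp upstream in the optimal list, at 306 bp in replicate 1 and at 359 bp in replicate 2. The gene upstream, the ubiquitin-conjugating enzyme gene ubc-25, ends 1446 bp away and had no optimal summit. Downstream rla-0, which encodes a protein of the ribosomal stalk, had a separate weaker peak (signal 46.5, rank 705), 1509 bp from the summit of pas-5.

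Among the 6 shared summits, the alpha ring gene had the nearer 5' end at pas-4, pas-6 and, by 2 bp in the optimal list, pas-7. At pas-7 the replicate summits were 38 bp apart. Replicate 1's was slightly nearer to puf-12 and replicate 2's nearer to pas-7, so that the nearer gene is not settled there. The other protein-coding gene was nearer at pas-1, pas-2 and pas-3. At 5 of the 6 the other gene was divergent, and at pas-1 it was on the same strand. Their products differ, with RNA polymerase subunits at rpoa-12 and rpb-3 and proteins of other kinds at D1054.1, use-1, CD4.11 and puf-12.

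The rest of the proteasome was read in the same way for comparison. The share of all protein-coding genes with an optimal summit in the window was 3.89%. In the beta ring 5 of 7 genes carried an optimal summit in the window, led by pbs-7 (signal 142) and pbs-3 (94.8), and pbs-5 and pbs-6 had none. Replicate 2 alone placed a peak at pbs-6 among its strongest, at rank 695, while replicate 1 had it at 14765. In the base of the 19S particle 9 of 10 genes had a summit, led by rpt-2 (262), an ATPase, and rpn-1 (255), a scaffold subunit, and the ubiquitin receptor gene rpn-10 had none. In the 19S lid it was 8 of 9, led by rpn-12 (371) and rpn-3 (324), and dss-1 had none. The median rank of the genes with a summit was 135 in the alpha ring, 132 in the beta ring, 28 in the base and 35 in the lid. In the same order the weakest ranks were 309, 178, 202 and 767, so that the lid also held the weakest peak. Among the 100 strongest optimal peaks were those of 3 alpha ring genes, 2 beta ring genes, 6 base genes and 5 lid genes. Genes with a peak this strong were not counted over all genes, so these counts have no share to stand beside. The strongest alpha ring peak, at 146, was thus below those of the leading base and lid genes, and the lists are too short and were chosen with these data known, so that the differences were not tested. Narrow peaks, such as that at pas-5, occurred at 1 alpha ring gene, no beta ring gene, 4 base genes and 3 lid genes. All of these narrow peaks were strong, with ranks from 6 to 35, where some full-width peaks also lay. The 8-base word was within 100 bp of the strongest summit at 3 of 7 alpha ring, 1 of 5 beta ring, 6 of 9 base and 4 of 8 lid genes. The run TTGTCATC was there at 3, 1, 3 and 3 of them, but it was defined from the alpha ring windows, so the counts are not alike.

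**Figure D4:**
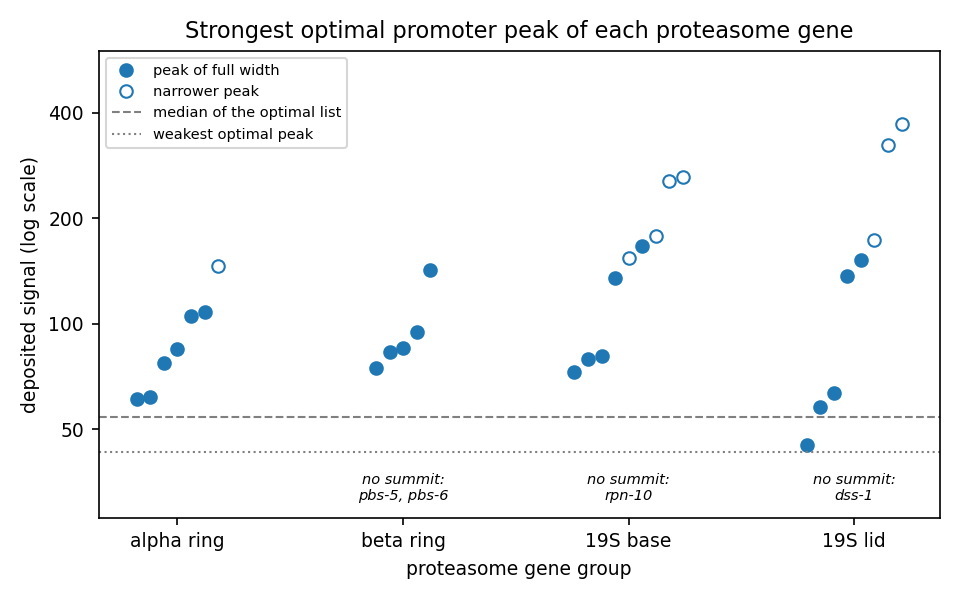
Deposited signal (log scale) of the strongest optimal promoter peak of each proteasome gene, by group, with open circles for peaks narrower than the list's full width and genes without a summit named below. All 7 alpha ring genes have a point, from 61.2 to 146, above the dashed median of the optimal list at 54.2.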

How the data were processed

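ChIP-seq peak lists of 2 biological replicates were used. The deposited files are a relaxed list per replicate, a relaxed list of both pooled, and an optimal list. Relaxed lists were input to the irreproducible discovery rate procedure and the optimal list derives from them, per the file headers. The sources used here name no aligner, peak caller or cutoff. Each peak carries a signal deposited by the authors and the −log10 of its q value, also deposited by the authors. All 872 optimal peaks were among the 872 strongest pooled peaks. Coordinates are ce11 and 1-based; the ce10 lists were not analysed here.

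A summit is the start of the peak plus the deposited offset. Summits were assigned to promoters of Ensembl release 115 genes. Ranks are by signal within a list, ties sharing the better rank. Words were searched within 100 bp of optimal summits, on both strands. There is 1 group of 2 replicates, so no test was run; counts are set beside the same counts over all genes. Members, gene groups and words were chosen with earlier results of these data known. Named genes are the members, genes sharing their summits, the nearest protein-coding gene on each side, and per comparison group the strongest 2 and those without a summit; the noncoding genes and the replicate ranks of pbs-6 were added after their values were seen. Alternatives were other windows, overlap rules, thresholds, word lengths and each replicate alone. Summit assignment and the word search were checked on planted data. Python 3.11 and matplotlib 3.10.9 were used.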

Additional observations from a re-analysis of the deposited data

How the results depend on the processing

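All 7 members kept an optimal summit with a window of 2000 bp upstream to 500 bp downstream, by peak overlap, with the 5' end of the gene record, in the pooled list and in the stronger of 2 equal blocks of the optimal peaks. All of these but the last had to hold. The longer window and the overlap rule take in the main one. Each gene has 1 annotated 5' end, and every optimal peak is also in the pooled list. With 500 bp upstream to 100 bp downstream 6 remained (without pas-1), and 4 shared their summit in place of 6. With the longer window all 7 shared it, pas-5 included. With full-width peaks only, an alternative added after seeing the data, 6 remained (without pas-5). Replicate support was 6 as well when each replicate's peak and the optimal peak had to overlap by 50% of each. Leaving out a replicate gave 6 to 7 members. The 8-base word was at 2 members within 50 bp and 3 within 150 bp. Within 100 bp, the 5-base word in its place was at 7.

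Ranked by q value all 7 tied at rank 1. Leaving out each replicate, ranks ran from 106 to 174 at pas-1, 157 to 263 at pas-2, 78 to 80 at pas-3, 75 to 97 at pas-4, 30 to 77 at pas-5, 276 to 347 at pas-6 and 197 to 1365 at pas-7. Signed distances in bp ran from -811 to -805 at pas-1, -101 to -96 at pas-2, -145 to -133 at pas-3, -108 to -105 at pas-4, -359 to -306 at pas-5, -207 to -174 at pas-6 and -230 to -192 at pas-7, so that each summit stayed upstream. No paired analysis was possible because there is 1 group. Read depth is unknown, and the relaxed lists hold background, which limits what a weak peak shows.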
